A study of Triticum aestivum with 122 samples.

Results

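The largest difference between wheat heads of the same group runs along a single axis, and 150 transcripts fall most steadily along it. They are described here across florets, rachises, heat, seed treatment and time. The axis was the first principal component of log2(normalized count + 1) after each floret group's mean had been removed, computed over 58 floret libraries and over entries with a mean normalized count of at least 50. Its sign was set so that a high score goes with more entries above 0 in a library. The members were chosen by these floret deviations: they are the 150 entries with the lowest correlation between their own deviation and this score, out of 24204 entries ranked and 55577 in the table. Each member is the transcript of a different gene.

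The material was bread wheat (Triticum aestivum) of the cultivar Vida. Seeds took up 2,4-epibrassinolide (EBR, a brassinosteroid) or the solvent dimethyl sulfoxide (DMSO), each given as 1 µM, over 48 h of germination, and all plants then grew at 22 °C under 16 h of light. At the tetrad stage, when the head is still inside the leaf sheath, some pots moved to constant 29 °C and the others stayed at 22 °C. Heads were cut ahead of the move (0 h) and at 8, 16 and 24 h of heat, and each was dissected into floret and rachis. This gave 16 groups per tissue: EBR seed at 29 °C, EBR seed at 22 °C, DMSO seed at 29 °C and DMSO seed at 22 °C, each at 4 times, with 4 plants in most groups. Plants named for 29 °C at 0 h had not yet been heated.

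Bread wheat carries an A, a B and a D subgenome, so that most genes exist as closely related copies on matching chromosomes. At the tetrad stage the pollen mother cells in the anthers have finished meiosis, and the surrounding anther tissues feed and enclose the young microspores; pollen development at this stage is known to be sensitive to heat. The rachis is the stem-like axis that bears the spikelets, and its growth is driven by cell elongation and division. Brassinosteroids are plant steroid hormones, perceived by receptor kinases at the cell surface, that act on cell elongation, vascular development and stress tolerance.

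None of the gene IDs matched the 155467 entries of the gene table used here, so neither functions nor cell types are assigned to the members. Tissue labels could not be checked with marker genes for the same reason. The first characters of an ID after the prefix give the chromosome.

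Read totals over the entries of the table were 14.5 to 21.8 M per floret library and 10.6 to 18.2 M per rachis library, in 121 libraries. The entries cover chromosomes 1 to 5 (5D in part), and chromosomes 6 and 7 were not analysed here. In 3 plants the tissue labels went against the values. An index built as the mean of 500 entries high in floret minus that of 500 entries high in rachis was -2.97, -1.75 and -1.56 in the libraries labelled floret of the plants EBR 22 °C 16 h replicate 3, DMSO 29 °C 0 h replicate 1 and DMSO 22 °C 0 h replicate 1, against 0.16 to 2.36 in the other floret libraries. The libraries labelled rachis of these plants were at 1.43, 1.5 and 0.38, against -4.53 to 0.25 in the other rachis libraries. The rule leaves out the floret libraries of these plants, and results that move without the plants are given both ways below. In bulk tissue, fewer cells of a type and less RNA per cell cannot be told apart.

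The axis held 44.7% of the variation between heads of the same floret group, and the next axis held 9.9%. Scores, in units of their SD, ran from -2.96 to 2.01. The members' correlations with the score ran from -0.969 to -0.903, and these values chose them. The choice lay in a dense ranking: 5733 ranked entries (23.7%) had a correlation under -0.5 and 5113 (21.1%) had one above 0.5. The last member inside the list, TraesCS5B03G0220800.1, stood at -0.9025, and the first entry outside, TraesCS1B03G1029400.1, at -0.9024.

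Floret slopes ran from -0.737 to -0.101 log2 units per SD of score, with a median of -0.238. The member with the lowest correlation, TraesCS4D03G0117500.1, averaged 874.6 normalized counts over the floret libraries, with 61.2 in the lowest library and 2567.6 in the highest. TraesCS4A03G0092900.1 came next, with a mean of 2264.1 and a range of 897.3 to 3716.6. Floret means of members are over the 58 libraries of the rule, and ranges are over all 61 floret libraries. The ranges span all groups, so they take in differences between groups as well as the swing along the axis. Over all groups, the ratio of the highest to the lowest floret library ranged from 1.77 to 153 over the members, with a median of 5.04.

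The members were well-expressed transcripts. Their mean floret level had a median of 878 normalized counts and ranged from 53.3 to 8747.7, against a median of 255.1 over all ranked entries. Of the members, 66 (44.0%) had a mean above 1000, against 13.4% of ranked entries. The less abundant members swung further: the median floret slope was -0.338 in the 84 members with a mean up to 1000 and -0.188 in the 66 above it. No floret library had a member at 0, and 4 members were at 0 in at least 1 rachis library. Levels are not per length, so they do not rank transcripts of different length.

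The members were spread over the genome. Subgenome A held 53 of them (35.3%, against 34.0% of ranked entries), B held 48 (32.0% against 33.4%) and D held 49 (32.7% against 32.6%). By chromosome group, 18 lay on group 1 (12% against 18.3% of ranked entries), 34 on group 2 (22.7% against 22.3%), 36 on group 3 (24.0% against 20.6%), 31 on group 4 (20.7% against 17.7%) and 31 on group 5 (20.7% against 21.0%). Single chromosomes held between 5 members (1B) and 14 members (3D and 5A). In the first or last 10% of a chromosome's entries in ID order lay 25 members (16.7%, against 15.6% of ranked entries). No test was made of these shares.

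The members' share of a library's signal varied across all groups, so its full range takes in differences between groups. Within a floret group it was narrower, as 0.46% to 0.55% in heated and 0.68% to 1.39% in unheated DMSO florets at 24 h. Together they took 0.46% to 1.8% of all normalized counts in floret libraries (median 1.21%) and 0.35% to 1.73% in rachis libraries (median 0.98%). Within floret groups, the score correlated with the number of entries above 0 at r = 0.729 (58 libraries) and with the number of whole reads at r = -0.271. The sign was set by the correlation with entries above 0 without group means removed, which was 0.373. Since the sign of the score and the choice of members were set this way, low members with more entries above 0 are no finding. The part of depth in the members' fall was not tested.

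Rachises of the same heads carry a readout that the rule did not use. In 56 plants with a floret score and a rachis library, every member fell in the rachis as the floret score rose: 150 of 150 members had a negative slope that passed limma's test (Benjamini-Hochberg adjusted p under 0.05 over all entries tested, largest adjusted p 0.027). Of the ranked entries, 33.8% were called lower in this test. The rachis slopes ran from -0.95 to -0.11 log2 units per SD, with a median of -0.31. Floret and rachis of a plant come from the same head, so this measures agreement within a head and not a second set of plants.

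TraesCS2D03G1072600.1 had a floret slope of -0.73 and the steepest rachis slope, -0.95 log2 units per SD (SE 0.11, limma adjusted p = 7.7e-10). TraesCS2B03G1175900.1 had a floret slope of -0.72 and the next rachis slope, -0.92 (SE 0.10, adjusted p = 2.5e-10). The slope was steeper in rachis than in floret for 128 of the 150 members, a difference that was not tested. Across members, rachis and floret slopes correlated at r = 0.91 (n = 150 members, which share their libraries).

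The member mean in the rachis, as deviation from its group, had r = -0.926 and rho = -0.912 with the floret score over the 56 plants. Without the pair of plants farthest from the median score r was -0.902 (54 plants). It was negative in all 13 groups with 3 or more such plants, with r between -1.0 and -0.153. Its correlation with the rachis library's whole reads was -0.032. The mean of the 150 entries with the highest floret correlations ran opposite to it in the rachis (r = -0.938). Single members' rachis deviations correlated with the floret score at -0.947 to -0.361 (median -0.852), and 148 were under -0.5, against 24.7% of ranked entries.

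**Figure D1:**
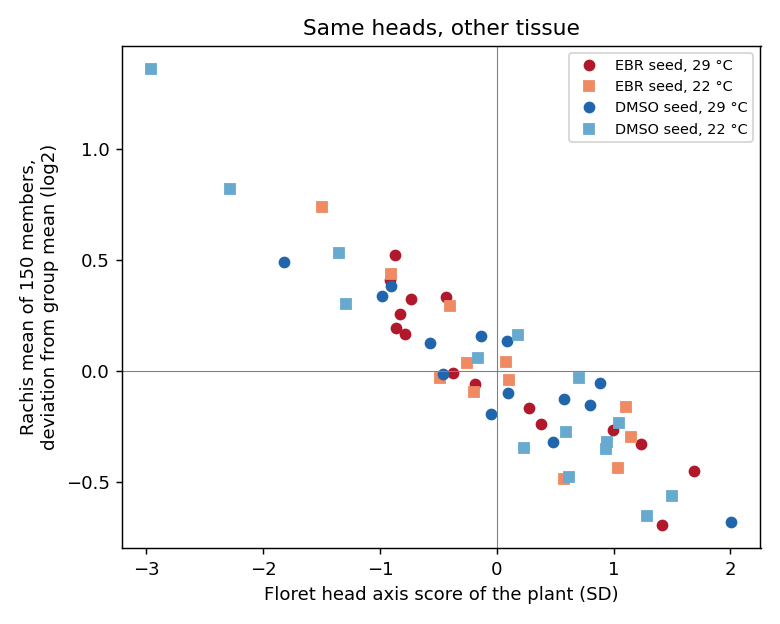
Mean rachis level of the 150 members, as deviation from the group mean in log2 units, against the floret score of the same plant in SD. Each point is 1 of 56 plants, coloured by seed treatment and temperature; plants run from high rachis level at a score near -2.96 to low level at a score near 2.01 (r = -0.926).

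Within rachis groups the members moved as a block. Their first component held 82.5% of their within-group variation there, and the median correlation between pairs of members was 0.852. Counts of members called in the comparisons below are therefore not counts of independent events. A component computed from rachis libraries alone, which held 46.4% of the variation against 7.4% for the next, shared 57 members among its own 150 lowest entries. On that rachis component 147 members were ranked, with correlations from -0.977 to -0.14 (median -0.923). TraesCS3D03G0227900.1 stood at -0.14 and TraesCS5A03G0073100.1 at -0.323, so these members follow the rachis axis little although both follow the floret axis.

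The contrast of the mean over all floret groups minus that over all rachis groups called 131 members higher and 4 lower (limma, adjusted p under 0.05), with a median log2 difference of 0.40 and a range of -0.89 to 2.02. Of the ranked entries, 44.0% were called higher and 32.9% lower. This fit took floret and rachis of a head as separate libraries, and a fit with the plant as a block is given at the end. The member mean was higher in floret than in rachis in 57 of 59 plants, by 0.48 ± 0.29 log2 units (SD, n = 59). Both exceptions are among the 3 plants whose tissue labels went against their values, and without those 3 it was higher in 56 of 56, by 0.53 ± 0.22 (SD, n = 56). The mean of at least 50 was asked of floret libraries only, and 3 members have a rachis mean under 50; among the other 147, 129 were called higher and 4 lower in floret.

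Means here are over the 58 floret libraries of the rule and all 60 rachis libraries, while the log2 differences were fitted on all libraries. TraesCS2D03G1072600.1 averaged 307.7 normalized counts in floret and 89.1 in rachis (log2 difference 2.02, SE 0.24, limma adjusted p = 1.9e-12). TraesCS3B03G1440900.1 averaged 227.3 in floret and 68.5 in rachis (1.97, SE 0.21, adjusted p = 4.9e-14). The members at the other end were lower in floret. TraesCS3D03G0227900.1 averaged 204.3 in floret and 370.0 in rachis (-0.89, SE 0.10, adjusted p = 1.1e-13). TraesCS3A03G0711600.1 differed by -0.22 (SE 0.09, adjusted p = 2.8e-02).

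Group means were not part of the rule, which used only deviations from them. At 22 °C the members changed with time: 139 of 150 passed limma's F-test over 8, 16 and 24 h against 0 h in both seed treatments of the floret, against 39.6% of ranked entries. The highest of the 4 group means lay at 8 h for 150 members in EBR florets and for 142 in DMSO florets, against 40.3% and 33.5% of ranked entries. In the rachis it lay at 8 h for 150 members in EBR heads (39.5% of ranked entries) and for 128 in DMSO heads (32.0%).

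The time of the lowest mean was the same in 3 of the 4 sets and spread over several times in EBR florets. In EBR florets at 22 °C it lay at 24 h for 31 members (17.4% of ranked entries), at 16 h for 67 and at 0 h for 52, with member means within their SDs of each other (9.53, 9.55 and 9.59 at 0, 16 and 24 h). The difference between seed treatments was not tested. In EBR rachises it lay at 24 h for 130 (26.3%). In DMSO heads it lay at 24 h for 150 members in floret and for 144 in rachis, against 35.4% and 41.5% of ranked entries. The count of members that passed the time test was 28 without the replicates numbered 1, 39 without those numbered 3 and 90 without those numbered 4. The share of ranked entries that passed was also lower in these fits than the 39.6% with all plants. Its range is given at the end.

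The member mean, the average of log2(normalized count + 1) over the 150 members, shows these levels group by group. In EBR florets at 29 °C it was 9.64, 9.17, 9.08 and 9.80 at 0, 8, 16 and 24 h, and in EBR florets at 22 °C 9.53, 10.26, 9.55 and 9.59. In DMSO florets at 29 °C it was 9.28, 9.73, 9.72 and 7.98, and in DMSO florets at 22 °C 9.84, 10.06, 9.42 and 8.95. The lowest floret group was thus heated DMSO heads at 24 h and the highest unheated EBR heads at 8 h.

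The rachis gave the same extremes. In EBR rachises at 29 °C the member mean was 9.21, 8.42, 8.61 and 9.24 at 0, 8, 16 and 24 h, and in EBR rachises at 22 °C 9.11, 9.95, 9.25 and 8.92. In DMSO rachises at 29 °C it was 8.99, 9.43, 9.10 and 7.49, and in DMSO rachises at 22 °C 9.54, 9.72, 8.78 and 8.20. SDs within groups ran from 0.06 in EBR heads at 22 °C and 8 h of both tissues to 0.67 in floret and 0.92 in rachis of unheated DMSO heads at 24 h.

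**Figure D2:**
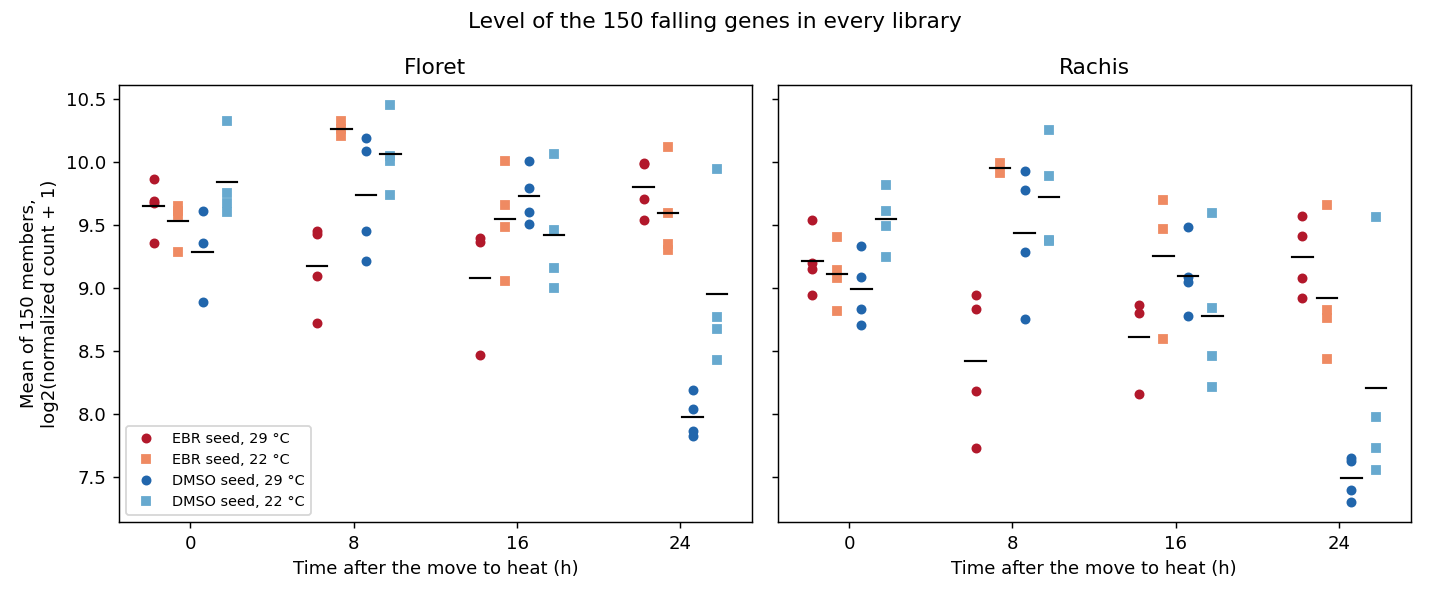
Mean log2(normalized count + 1) of the 150 members in each of 121 libraries against time in hours, floret left and rachis right; points are libraries, bars are group means. The heated DMSO libraries at 24 h lie lowest in floret (7.83 to 8.18); in rachis (7.30 to 7.65) they overlap the unheated DMSO libraries, whose lowest is 7.55, and 1 of the 4 unheated DMSO plants at 24 h stands high in both tissues (9.94 and 9.56).

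The members were lower in heated than in unheated DMSO florets at 24 h. Of 150 members 130 were called lower and 0 higher in 29 °C minus 22 °C (limma, adjusted p under 0.05; 139 at an unadjusted p under 0.05), against 24.7% of ranked entries called lower. All 150 differences were negative, from -2.55 to -0.22, with a median of -0.86, or 1.82-fold lower; the median of ranked entries was -0.02. In 108 members every heated library lay below every unheated one, which held for 19.6% of ranked entries. Groups without heat differed too: at 0 h the member mean was 9.84 in DMSO florets named for 22 °C and 9.28 in those named for 29 °C. In EBR florets it was 9.53 and 9.64. In rachis the values were 9.54 and 8.99 for DMSO, and 9.11 and 9.21 for EBR. Both DMSO groups at 0 h hold a plant whose tissue labels went against its values. These differences at 0 h were not tested.

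TraesCS5B03G1158300.1 had 22.2, 14.7, 8.2 and 12.7 normalized counts in the heated DMSO florets at 24 h, against 25, 372, 68.5 and 58.3 in the unheated ones (log2 difference -2.44, SE 0.66, adjusted p = 2.7e-03). The groups did not overlap, although the nearest libraries, 22.2 and 25, were close. TraesCS3B03G0528700.1 had 10.2, 12.6, 14.3 and 7.4 in the heated florets, against 33.0, 142, 41.9 and 47.4 in the unheated ones (-2.25, SE 0.44, adjusted p = 7.1e-05). The same unheated plant, replicate 2, gave the highest value in both transcripts.

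That plant, DMSO 22 °C 24 h replicate 2, held the lowest floret score of all (-2.96). Its member mean was 9.94 in floret and 9.56 in rachis, against 8.43, 8.67 and 8.76 in floret and 7.55, 7.97 and 7.73 in rachis for the other plants of its group. Without it, a choice made after its values were seen, 86 members were called in florets of DMSO heads at 24 h, all lower, and the median difference was -0.59. Leaving out all replicates numbered 2 left 55 members called. Of ranked entries, 29.3% and 21.9% were called in these fits, in either direction.

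TraesCS4D03G0117500.1, the member with the lowest correlation, had 861, 1410, 1164 and 725 normalized counts in EBR florets at 29 °C and 24 h, against 1522, 494, 527 and 879 at 22 °C. In DMSO florets at 24 h it had 114, 90.2, 61.2 and 63.3 at 29 °C, against 126, 1208, 198 and 221 at 22 °C. Heated and unheated florets thus overlapped in EBR heads and stayed apart in DMSO heads. TraesCS4A03G0092900.1 had 1092, 1024, 897 and 983 in heated DMSO florets, against 1246, 2896, 1387 and 1383 in unheated ones.

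In EBR florets at 24 h, 1 member was called higher and 0 lower under heat, against 2.92% of ranked entries called higher, with a median difference of 0.19 and 14 members at an unadjusted p under 0.05. TraesCS5B03G0220800.1 had 6652, 6386, 10326 and 5818 normalized counts at 29 °C, against 4535, 3127, 3612 and 4141 at 22 °C (log2 difference 0.90, SE 0.26, limma adjusted p = 2.9e-02). With all plants fitted, the heat response itself differed between seed treatments at 24 h, and this depended on replicate 2, as given below. The interaction, heat response in EBR florets minus that in DMSO florets, was called in 120 members, all positive, against 17.2% of ranked entries, with a median of 1.03 and a range of 0.34 to 2.76.

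TraesCS5B03G1158300.1 had 209, 268, 346 and 157 normalized counts in EBR florets at 29 °C, against 626, 163, 154 and 184 at 22 °C; with the DMSO values given above the interaction was 2.46 (SE 0.93, limma adjusted p = 4.0e-02). TraesCS4D03G0455000.1 had 197, 247, 251 and 127 in EBR florets at 29 °C against 400, 97.6, 103 and 182 at 22 °C, and 34.2, 14.7, 10.2 and 6.3 in DMSO florets at 29 °C against 29.4, 286, 38.8 and 54.9 at 22 °C (2.45, SE 0.87, adjusted p = 3.0e-02). The EBR groups overlapped across temperatures in both transcripts. Without the DMSO 22 °C 24 h replicate 2 plant the interaction was called in 69 members (median 0.77, 20.3% of ranked entries in either direction). Without all replicates numbered 2 it was called in 4 (4.8% of ranked entries), where the share of members called lies below that of ranked entries.

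Among heated florets at 24 h, EBR and DMSO heads differed in every member. All 150 were called higher in EBR than in DMSO florets at 29 °C, against 36.6% of ranked entries, by 0.52 to 4.56 log2 units with a median of 1.51, or 2.85-fold. No member's groups overlapped, which held in this direction for 33.6% of ranked entries. The heated DMSO florets also enter the heat and interaction contrasts at 24 h, so those results share libraries with this one.

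TraesCS2D03G1072600.1 had 285, 404, 414 and 218 normalized counts in EBR florets at 29 °C and 24 h, against 19.6, 13.6, 6.1 and 14.8 in DMSO florets (log2 difference 4.56, SE 0.79, limma adjusted p = 2.2e-06). TraesCS2A03G1051100.1 had 69.4, 132, 100 and 73.9 in EBR florets, against 3.4, 9.4, 4.1 and 2.1 in DMSO florets (4.14, SE 0.67, adjusted p = 6.7e-07). In both, the lowest EBR library lay well above the highest DMSO library. The number of entries above 0 moved with the groups: it was 42709 to 43838 in the EBR libraries and 45799 to 47131 in the DMSO libraries, and its part in the result was not tested. The read totals of the groups overlapped, with 16.6 to 20.8 M in EBR and 15.5 to 19.0 M in DMSO.

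The rachis gave a like picture at 24 h. At 29 °C, 141 members were called higher and 1 lower in EBR than in DMSO rachises (36.6% and 31.0% of ranked entries), with a median difference of 1.61, or 3.05-fold. In 144 members every EBR library lay above every DMSO library, against 34.2% of ranked entries. TraesCS3D03G1057200.1 had 74.0, 156, 169 and 64.8 normalized counts in EBR rachises, against 5.6, 2.1, 15.6 and 2.2 in DMSO rachises (log2 difference 4.21, SE 0.78, limma adjusted p = 1.0e-05). TraesCS5B03G1158300.1 had 73.0, 113, 136 and 51.4, against 6.8, 2.1, 9.6 and 2.2 (4.04, SE 0.85, adjusted p = 7.3e-05).

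Heat in DMSO rachises at 24 h called 69 members lower and 2 higher, against 21.0% and 15.3% of ranked entries, with a median of -0.69. TraesCS3D03G0103200.1 had 9.0, 12.5, 18.0 and 7.9 normalized counts in heated DMSO rachises, against 51.0, 262, 46.3 and 40.0 in unheated ones (log2 difference -2.55, SE 0.48, limma adjusted p = 7.8e-05). TraesCS2D03G0623300.1 had 86.9, 35.5, 48.0 and 59.5, against 94.6, 550, 109 and 165 (-1.67, SE 0.40, adjusted p = 1.1e-03). Replicate 2 of the unheated group again gave the high value, and without that plant 24 members were called, 20 lower and 4 higher, with a median of -0.28, against 20.7% of ranked entries in either direction. Without all replicates numbered 2, 11 were called (11.3% of ranked entries), and with only the compared groups fitted 5 of 147 tested (4.61%). In each of these fits, the one without that plant included, the share of members called lies below that of ranked entries.

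TraesCS5A03G0073100.1 went the other way in the rachis. It had 185, 245, 221 and 241 normalized counts in heated DMSO rachises at 24 h, against 119, 130, 69.5 and 110 in unheated ones (log2 difference 1.08, SE 0.25, limma adjusted p = 9.6e-04). In heated EBR rachises it had 83.6, 157, 138 and 103, lower than in the heated DMSO rachises (-0.92, SE 0.25, adjusted p = 1.7e-03). In the floret at 24 h and 29 °C it was higher in EBR heads, with 146, 193, 165 and 108, against 69.2, 70.3, 53.0 and 69.6 in DMSO heads. The opposite order in the 2 tissues comes from the same plants, and the difference between tissues was not tested.

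**Figure D3:**
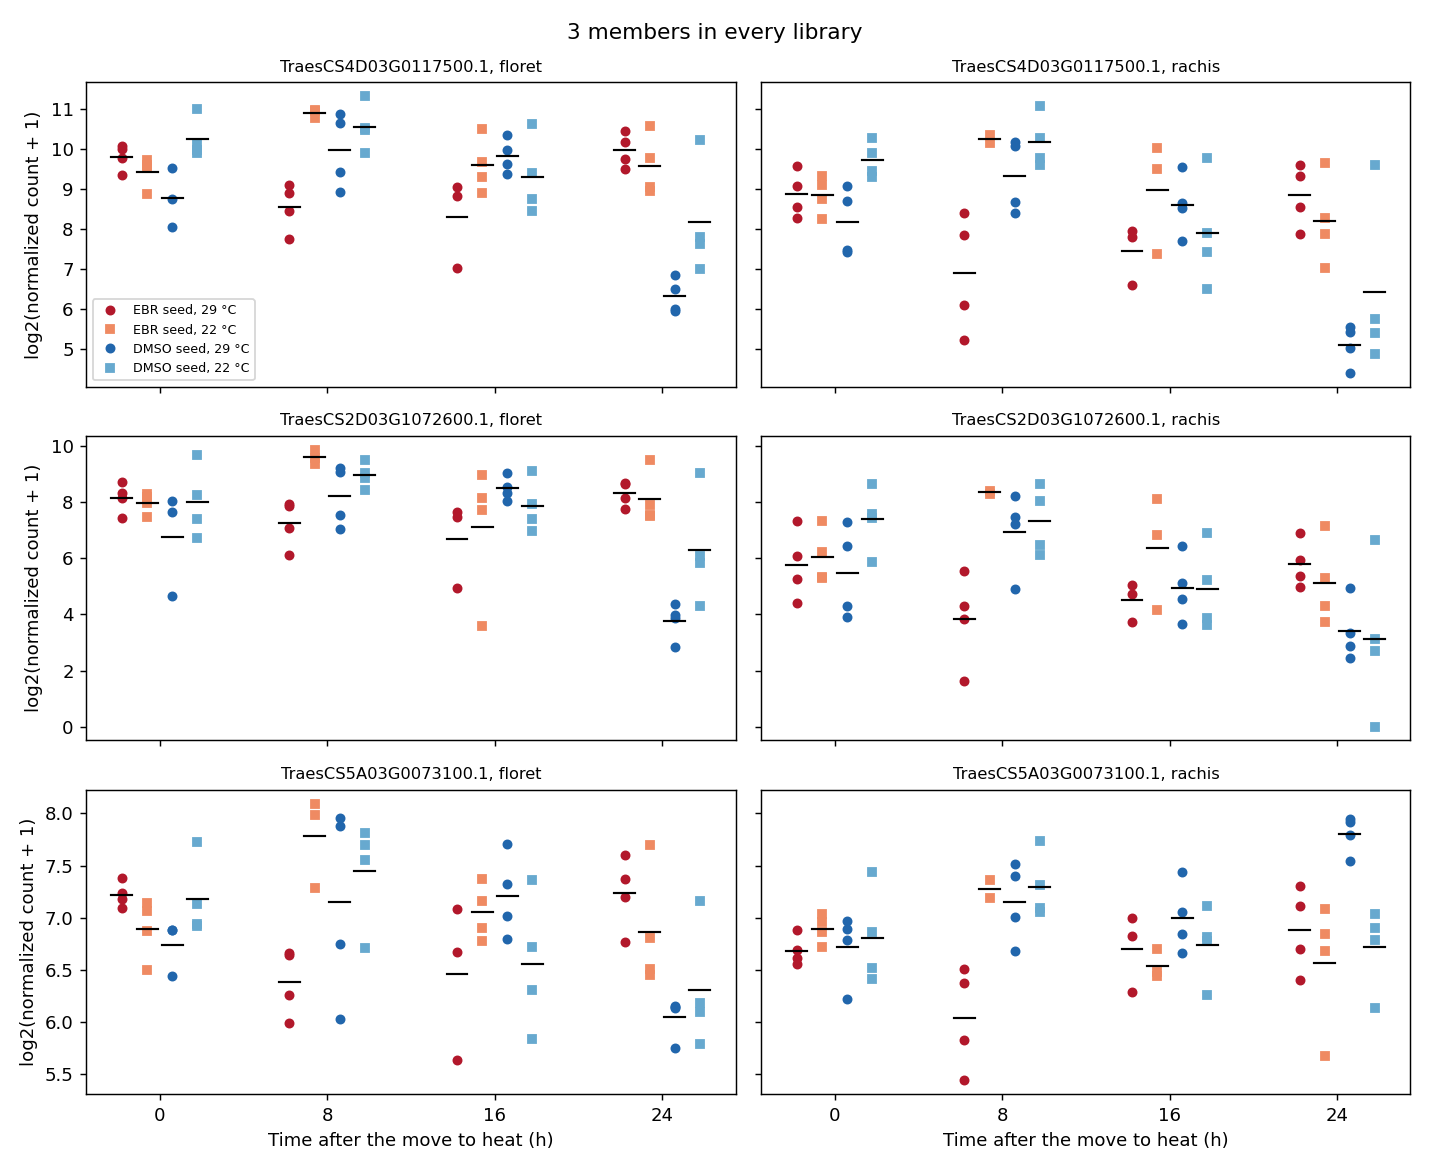
log2(normalized count + 1) of TraesCS4D03G0117500.1, TraesCS2D03G1072600.1 and TraesCS5A03G0073100.1 in every library against time in hours, floret left and rachis right; points are libraries and bars group means. In heated DMSO heads at 24 h all 3 are low in floret, while TraesCS5A03G0073100.1 is high in rachis.

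In EBR florets at 8 h, 132 members were called lower at 29 °C than at 22 °C and 0 higher (139 at an unadjusted p under 0.05), against 20.9% of ranked entries called lower. All 150 differences were negative, with a median of -0.88, or 1.84-fold lower. In 141 members the groups did not overlap, against 27.9% of ranked entries. The groups had 4 and 3 plants.

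TraesCS2A03G1051100.1 had 51.4, 23.4, 13.3 and 48.0 normalized counts in EBR florets at 29 °C and 8 h, against 231, 223 and 199 at 22 °C (log2 difference -2.83, SE 0.72, limma adjusted p = 3.2e-03). TraesCS3D03G1057200.1 had 86.5, 39.5, 38.8 and 96.1, against 458, 430 and 403 (-2.82, SE 0.64, adjusted p = 1.2e-03). The unheated EBR florets lay close together and the heated ones were further apart. The members called here and those called lower in DMSO florets at 24 h, contrasts with no common library, shared 117, which is 88.6% of the 132 and 90.0% of the 130. Lists of these sizes out of 150 share at least 112, so the overlap says little.

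In EBR rachises at 8 h, 133 members were called lower and 0 higher at 29 °C, against 17.7% of ranked entries, with a median of -1.30, or 2.46-fold lower; 147 members did not overlap, against 30.4% of ranked entries. The unheated group held only 2 rachis libraries. Leaving out the replicates numbered 2 or those numbered 3 keeps 1 of them, and the median difference was -1.17 in each of these fits. With 1 unheated library no count of members is given. TraesCS2D03G1072600.1 had 45.5, 13.2, 2.1 and 18.6 normalized counts at 29 °C, against 336 and 317 at 22 °C (log2 difference -4.53, SE 1.21, limma adjusted p = 7.8e-03). TraesCS2A03G1051100.1 had 17.3, 0.0, 2.1 and 7.8, against 119 and 88.5 (-4.45, SE 1.09, adjusted p = 4.5e-03). The differences of such low values depend on the pseudocount.

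In DMSO florets at 8 h, 1 member was called lower and 0 higher under heat, against 3.65% of ranked entries called lower; the median difference was -0.29 and 140 members were negative. At 16 h, 2 members were called higher in DMSO florets under heat (3.20% of ranked entries), with a median of 0.24, and 5 were called lower in EBR florets (4.75%), with a median of -0.40. In each of these contrasts the share of members called lies below that of ranked entries. The difference between seed treatments in the heat response was tested at 24 h only.

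TraesCS5B03G0220800.1 had 6583, 7500, 7163 and 8358 normalized counts in DMSO florets at 29 °C and 16 h, against 2539, 3024, 3610 and 5534 at 22 °C (log2 difference 1.07, SE 0.26, limma adjusted p = 9.4e-03). TraesCS5D03G0032700.1 had 4244, 5121, 4749 and 4978, against 2072, 2468, 3053 and 3839 (0.78, SE 0.23, adjusted p = 3.8e-02). The groups did not overlap in either. In EBR florets at 16 h TraesCS3D03G0103200.1 had 96.1, 119 and 48.7 at 29 °C, against 378, 245, 183 and 200 at 22 °C (-1.54, SE 0.46, adjusted p = 3.4e-02). TraesCS3D03G0227900.1 had 127, 146 and 60.2, against 371, 177, 448 and 177 (-1.37, SE 0.41, adjusted p = 3.6e-02). The unheated EBR group at 16 h includes a plant whose tissue labels went against its values, and without the 3 such plants 15 members were called lower here, with a median of -0.53, while 12.1% of ranked entries were called in either direction.

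**Figure D4:**
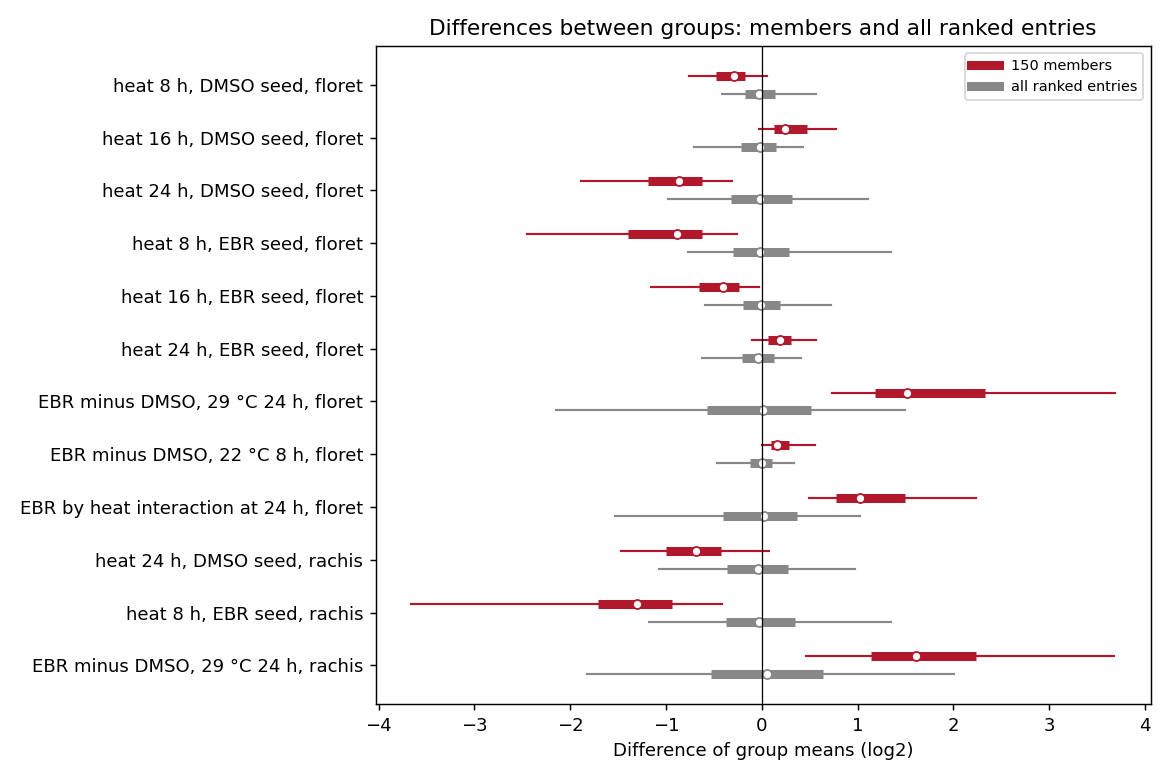
Differences between group means in log2 units for the 150 members (red) and all 24204 ranked entries (grey) in 12 contrasts; circles are medians, thick bars span the 25th to 75th percentile and thin bars the 5th to 95th. Members lie to the left in DMSO heads at 24 h and EBR heads at 8 h, and to the right in EBR minus DMSO at 29 °C and 24 h.

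Without heat the seed treatments were not told apart at 8 h. In florets at 22 °C, 0 of 150 members were called in EBR minus DMSO by limma, 0 by edgeR and 0 at an unadjusted p under 0.05 in limma, and 0.0124% of ranked entries were called. With only these groups fitted, 0 were called and 19 had an unadjusted p under 0.05. The median difference was 0.16, and 7 members were negative. The member mean was 10.26 ± 0.06 in EBR florets (SD, n = 3) and 10.06 ± 0.29 in DMSO florets (SD, n = 4).

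How far these contrasts go with the position of the heads on the axis was measured with the other tissue. Plants with both tissues were fitted again with a score of the other tissue of the same plant as a covariate. This score was read on the axis of within-group deviations computed in that other tissue, and group means were not removed from it. It therefore carries differences between groups and is not the floret score used above. In EBR heads at 8 h the members called under heat came to 1 in floret (2.64% of ranked entries in either direction), against 113 in the same plants without the covariate (23.9%), and to 1 in rachis (1.97%), against 132 (30.1%). In DMSO florets at 24 h 82 were called (30.5%), against 129 (44.8%), and the interaction was called in 20 (10.9%), against 120 (33.8%). In EBR minus DMSO at 29 °C and 24 h 75 were called in floret (31.7%), against 150 (71.5%). In rachis 21 were called there (19.3%), 11 lower and 10 higher with a median of 0.02, against 142 (67.6%), 1 lower and 141 higher. The members' level in the other tissue differs between groups too, as given above, so that the group difference and the position on the axis cannot be told apart in these fits.

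The more abundant members behaved like the rest, with smaller differences. In DMSO florets at 24 h the median heat difference was -0.76 in the 66 members above 1000 normalized counts, of which 60 were called, and -1.08 in the other 84, of which 70 were called. In EBR florets at 8 h the medians were -0.67 (54 called) and -1.22 (78 called). In EBR minus DMSO at 29 °C and 24 h they were 1.28 (66 called) and 1.97 (84 called).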

How the data were processed

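Poly(A)-selected RNA of floret and rachis was sequenced, per the labels' protocols. The authors deposited one table of signal, named normalized counts, per entry and library; tools listed in the submitters' processing notes, without roles, are DESeq2, featureCounts, STAR, Trimmomatic 0.36, MultiQC and FastQC, and no genome build is named in the labels. Of 55578 entries, 1 was incomplete and left out; 121 of 122 samples have a column, and the rachis of EBR 22 °C 8 h replicate 1 entered no test. In each library 100% of values were whole reads times 1 factor, within 0.01. Normalization to a common scale cannot show a change of total RNA.

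The members and lists were chosen with earlier results of these data known. Values were tested as log2(value + 1) with limma 3.58.1 in R 4.3.3 (intensity trend, 1 mean per group, all groups of a tissue in a fit), for entries that reached a value of 10 in 3 or more libraries. The contrast between tissues was fitted on the libraries of both tissues together, without pairing by plant. Tests were two-sided, adjusted by Benjamini-Hochberg over all entries tested, and called at 0.05. Differences on this scale understate the change of low entries. Members were picked for moving together within floret groups, and their spread within groups (median SD 0.263, against 0.169 over ranked entries) enters the floret tests. The labels call the plants biological replicates. They also give each group 1 plant number, which all its replicates share, so that number cannot be told apart from the group. A plant here means 1 replicate number within a group.

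Named members are the 2 with the lowest correlation, the last inside and first outside the list, and per contrast up to 2 called members per direction with the largest difference and no overlap between groups. Alternatives were pseudocounts of 0.5 and 5, other filters, TMM (trimmed mean of M-values) scaling, edgeR 4.0.16 quasi-likelihood tests on the recovered whole reads, fits of the compared groups only, each replicate number left out, a replicate block, the 3 plants left out, and the other tissue's score as a covariate. Replicate numbers do not pair plants: residuals of same-numbered libraries correlated at 0.001 on average in floret and 0.01 in rachis. Tests were tried on simulated data. Precision is limited by 2 to 4 plants per group.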

Additional observations from a re-analysis of the deposited data

Results flagged for a closer look

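The response to heat differed between seed treatments in the floret at 24 h by a test of the difference itself: limma's interaction term called 120 of 150 members (adjusted p under 0.05), all positive, with a median of 1.03 log2 units, against 34.6% of ranked entries in either direction. The count was 69 without the DMSO 22 °C 24 h replicate 2 plant (20.3% of ranked entries) and 20 with the other tissue's score as a covariate (10.9%). Without all replicates numbered 2 it was 4 (4.8%), where the share of members called lies below that of ranked entries. Within EBR florets heat called 1 member, higher (6.60% of ranked entries in either direction), and within DMSO florets 130, lower (45.3%). No library stood out within its group by Dixon's test on the member mean in the 26 groups of 4 plants, where chance gives about 1 in 20; the unheated DMSO plant at 24 h described above did not pass it.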

How the results depend on the processing

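Directions held in most settings. Rescaling by TMM factors and edgeR on whole reads changed no count by more than 1.5 times and left every median direction of the members as it was; in EBR minus DMSO rachises at 29 °C and 24 h the median of all ranked entries was 0.17 and 0.15 under them, against 0.06, and in the floret 0.11 and 0.13, against 0.02. The edgeR test called 138 members for the interaction, against 36.6% of ranked entries in either direction. For heat in DMSO heads at 24 h it called 141 in floret (45.5%) and 102 in rachis (37.4%).

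With the other tissue's score as a covariate, EBR florets at 8 h had 1 member called, now higher, EBR rachises at 8 h 1, DMSO florets at 24 h 82, DMSO rachises at 24 h 31 (19 lower, 12 higher), EBR minus DMSO at 29 °C and 24 h 75 in floret and 21 in rachis (11 lower and 10 higher, against 1 and 141), the interaction 20, DMSO florets at 8 h 7 and at 16 h 1, and EBR florets at 16 h 1 and at 24 h 2; EBR florets at 16 h had 3 in the same plants without it. The cause was not tested. Without the DMSO 22 °C 24 h replicate 2 plant, heat at 24 h called 86 in DMSO florets and 24 in DMSO rachises. The interaction was called in 69, and the shares of ranked entries for these fits are given above. In DMSO florets at 8 and 16 h and in EBR florets at 16 h, more members were called without that plant than with it. Without the 3 plants whose tissue labels went against their values, DMSO florets had 2 at 8 h (7.72%) and 4 at 16 h (8.55%). EBR florets had 15 at 16 h (12.1%) and 2 at 24 h (8.41%). Fitting only the compared groups gave 0 in DMSO florets at 8 h (2.11%) and 5 in DMSO rachises at 24 h (4.61%), from fewer samples. In EBR florets it gave 0 at 16 h (0.232%), against 5 with all groups, and 3 at 24 h (4.21%). In DMSO florets at 16 h 1 was called with no filter (5.17%) and 4 with a mean of at least 50 (8.47%). That filter gave 9 in EBR florets at 16 h (10.2%).

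Each replicate number was left out in turn, with shares of ranked entries called in either direction in brackets. Heat called 55 to 136 members in DMSO florets (21.9% to 47.3%) and 11 to 94 in DMSO rachises (11.3% to 43.2%) at 24 h. It called 80 to 132 in EBR florets at 8 h (20.0% to 34.9%). EBR rachises at 8 h had 137 without number 1 (36.8%) and 136 without number 4 (33.0%). The interaction was called in 4 to 143 (4.8% to 42.1%) and time in 28 to 145 (7.78% to 38.2%). EBR minus DMSO at 29 °C and 24 h gave 149 to 150 in floret (64.2% to 69.1%) and 132 to 141 in rachis (57.9% to 65.7%). The rachis slopes gave 148 to 150 (52.5% to 59.6%) and tissue 130 to 134 (70.0% to 74.6%). DMSO florets at 8 and 16 h and EBR florets at 24 h had 0 to 1 (0.946% to 5.43%). EBR florets at 16 h had 0 to 8 (2.16% to 5.77%), and EBR minus DMSO at 22 °C and 8 h had 0 to 0 (0.0% to 0.0124%). The low counts of DMSO heads at 24 h and of the interaction came without replicate 2.

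With replicate number as a block, which the residuals gave no ground to treat as a pairing, 120 members were called for the interaction. Of ranked entries 34.4% were called there in either direction, with such shares in brackets below. EBR minus DMSO at 29 °C and 24 h had 150 in floret (71.7%) and 142 in rachis (67.8%). Heat in DMSO heads at 24 h had 129 in floret (45.1%) and 67 in rachis (36.3%). In EBR heads at 8 h it had 131 (37.1%) and 133 (30.8%), floret first, and in EBR florets at 16 h 4 (7.25%). Time had 135 (39.3%). The rachis slopes had 150, and without a block this test called 65.1% of ranked entries. With the plant as a block 146 were called between tissues. Without that block it was 135, and 76.9% of ranked entries were called. The block changed no other count. The rule itself kept 107 of its 150 members with all 61 floret libraries, 146 with a mean of at least 20, 127 with at least 200, 135 with a pseudocount of 5, 142 with TMM factors and 99 with deviations scaled to unit SD. Depth limits members near 1 read per library in the rachis.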
